A study of Homo sapiens with 18 samples.

Results

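The sterol regulatory element-binding protein (SREBP) genes, the membrane proteins that hold or release SREBPs, and genes of cholesterol uptake and transport were followed in OVCAR5 cells, a human ovarian cancer cell line, after exposure to a saturated or an unsaturated fatty acid. The 8 genes were chosen by name: SREBF1, SREBF2, SCAP, INSIG1, INSIG2, MYLIP, STARD4 and NPC1. All 8 were present among the 60483 genes of the deposited expression table, and all 8 were among the 13789 genes with a mean of at least 1 TPM. TPM, the usual abbreviation for a length-corrected share of all transcripts in a sample, takes the length of each transcript into account, so levels of different genes can be set side by side. The 18 samples comprised 6 conditions with 3 replicates each, every sample from wild-type cells cultured for 24 h in medium with fatty acid-free albumin. The control conditions were DMSO and CAY10566 without added fatty acid. The stearate and oleate conditions each received 50 µM of the fatty acid with DMSO or with CAY10566. CAY10566 was used at 1 µM and inhibits stearoyl-CoA desaturase, the enzyme that converts saturated fatty acids such as stearate to monounsaturated ones such as oleate. Each treatment was run in triplicate on cells plated in multi-well plates, and the p-values measure the spread between these samples. The study's statistics section speaks of independent in vitro experiments in general, without naming the RNA samples, so part of that spread may be technical. A single cell line was sampled at 1 time.

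SREBPs are made as precursors in the membrane of the endoplasmic reticulum. SCAP, an escort protein that senses sterols, carries them to the Golgi apparatus, where proteases release the part that enters the nucleus and activates lipid genes. INSIG1 and INSIG2 bind SCAP when sterols are plentiful and keep the complex in the endoplasmic reticulum. INSIG1 is itself a target of SREBPs and INSIG2 largely is not. Unsaturated fatty acids are known to lower SREBP1 activity in cultured cells. The sequencing measured mRNA, not the cleavage or location of these proteins.

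The epithelial identity of the cells was clear from EPCAM (311 to 353 TPM), KRT8 (770 to 1004 TPM) and KRT18 (632 to 927 TPM). Of the serous ovarian markers, PAX8 was present at 7.64 to 16.9 TPM, whereas WT1 did not exceed 0.52 TPM, SOX17 did not exceed 0.13 TPM and MSLN ranged from 0.46 to 1.70 TPM. MUC16, counted here among the epithelial markers, ranged from 0.25 to 1.04 TPM. The labels call the line a high-grade serous adenocarcinoma. The low WT1, SOX17 and MSLN levels go against the serous part of that name, and the cells are called OVCAR5 cells here. The summed level of the 7 epithelial markers ran from 2744 to 2869 TPM in the control group, from 2237 to 2404 TPM with stearate and from 2460 to 2741 TPM with oleate. The 10 markers of leukocytes, fibroblasts and endothelium summed to 89.0 to 118 TPM in the control group, 88.4 to 95.7 TPM with stearate and 103 to 122 TPM with oleate. Nearly all of that sum was CD68, a lysosomal protein gene (81.9 to 113 TPM), and COL1A1 (3.10 to 7.17 TPM), while the leukocyte gene PTPRC did not exceed 0.06 TPM. The part of these shifts in the results was not tested, and in bulk samples fewer cells of a type and less RNA per cell cannot be told apart.

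Stretches upstream of the RefSeq start sites of 5 genes are shown for the letters that SREBPs and their partner NF-Y are known to bind. They come from RefSeq (GRCh38.p14), which matched 8 of 8 genes. Each window covered 250 bases before to 50 bases after the annotated start. Both strands were searched. Capitals mark the sterol regulatory element TCACCCCAC, the palindrome TCACGTGA, which holds the E-box CACGTG, or the CCAAT box, written ATTGG where it lies on the other strand.
SREBF2, chr22:41832955-41833014, plus strand: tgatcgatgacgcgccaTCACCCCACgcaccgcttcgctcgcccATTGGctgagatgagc
INSIG1, chr7:155297678-155297775, plus strand: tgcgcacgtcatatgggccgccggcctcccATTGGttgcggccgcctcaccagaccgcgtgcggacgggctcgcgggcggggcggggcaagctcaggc
INSIG1, chr7:155297811-155297840, plus strand: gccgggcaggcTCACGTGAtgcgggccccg
STARD4, chr5:111512651-111512715, minus strand: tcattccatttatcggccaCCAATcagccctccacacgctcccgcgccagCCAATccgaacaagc
MYLIP, chr6:16128961-16129030, plus strand: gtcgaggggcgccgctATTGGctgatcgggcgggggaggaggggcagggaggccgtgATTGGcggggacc
INSIG2, chr2:118088221-118088370, plus strand: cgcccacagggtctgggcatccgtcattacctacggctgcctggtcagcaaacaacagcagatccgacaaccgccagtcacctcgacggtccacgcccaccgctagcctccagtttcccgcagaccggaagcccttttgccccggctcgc

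The stretch of INSIG2 holds none of these letters in capitals and is shown beside that of INSIG1, its paralogue, because the levels of the INSIG genes moved differently. Whether the letters go with the levels was not tested. The sterol regulatory element occurred in SREBF2 alone among the 8 genes, at position -133 from the start. It was found in 0.43% of the 35116 promoter windows of all genes, and in 1.13% when its central base was left free (TCACNCCAC). The palindrome occurred in INSIG1 alone, at position -56, and in 0.98% of all windows, and the E-box within it was also present in SCAP (7.26% of all windows). CCAAT was present in SREBF2, INSIG1, MYLIP and STARD4 (34.6% of all windows), with a pair of copies in MYLIP and in STARD4. The GC box GGGCGG was present in all 8 genes and in 44.95% of all windows. It was the only one of these motifs in SREBF1, NPC1 and INSIG2. SREBF1 and NPC1 nevertheless fell with oleate, while SREBF2 and MYLIP, which hold marked letters, did not pass in the main fits. The INSIG1 stretch with the palindrome lies upstream of the RefSeq start but within the gene and wholly in an exon as GENCODE annotates it. All 60 bases of the SREBF2 stretch lie in GENCODE exons of the antisense RNA gene SREBF2-AS1. A match describes the letters of these windows and is not a measured binding site.

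**Figure D1:**
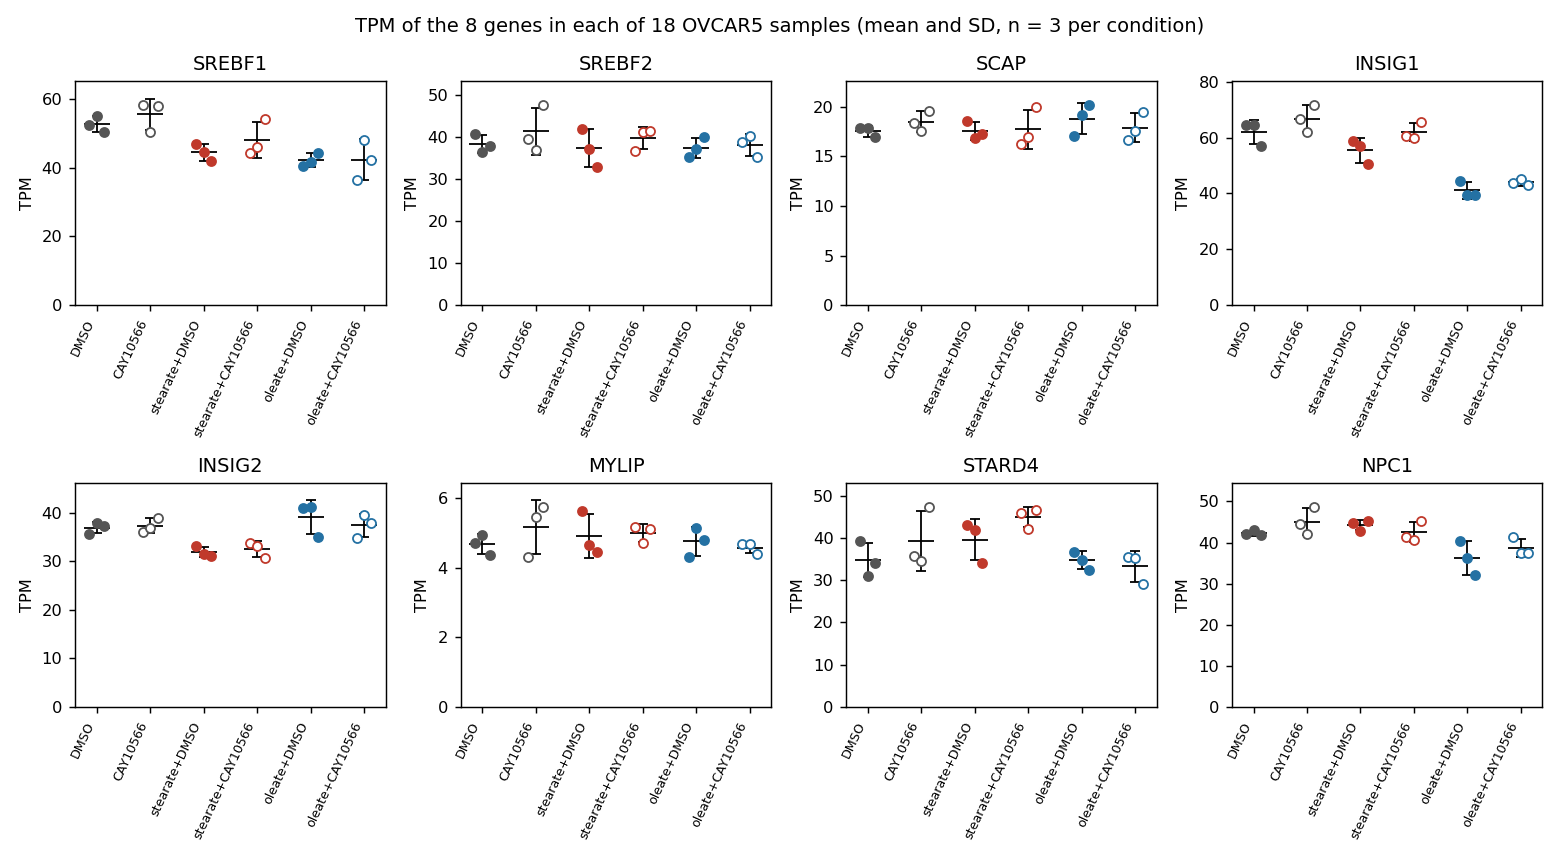
TPM of each of the 8 genes (vertical axes, from 0) in the 6 conditions, with a point per sample, filled for DMSO and open for CAY10566, and the mean and SD of 3 replicates. INSIG1 lay between 39.26 and 45.33 TPM in the oleate samples and at 50.41 TPM or above in all others, and INSIG2 did not exceed 33.70 TPM in the stearate samples.

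To ask how the genes responded to each fatty acid, the 6 stearate and 6 oleate samples were each compared with the same 6 control samples, and then with each other. INSIG1 fell from a mean of 64.4 TPM in the control group to 42.5 TPM with oleate, and SREBF1 and NPC1 fell with oleate as well. SREBF1 and INSIG2 fell with stearate. STARD4 was higher with stearate than with oleate, and SREBF2, SCAP and MYLIP passed the test in none of the 3 comparisons. A gene passed at a Benjamini-Hochberg adjusted p under 0.05 in limma on log2(TPM + 1), over all 13789 genes tested, and differences are given on that scale.

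Among all genes tested, 13.5% passed as higher and 5.97% as lower in stearate versus control, against 0 and 2 of the 8 genes. In oleate versus control 23.0% of all genes passed as higher and 2.70% as lower, against 0 and 3 of the 8. In stearate versus oleate 6.85% passed as higher and 14.3% as lower, against 3 and 1 of the 8. With an added requirement of a difference over 0.32 in either direction, the backgrounds were 5.35%, 6.90% and 6.37%. That requirement was met by none of the 8 genes in stearate versus control, by INSIG1 and SREBF1 in oleate versus control, and by INSIG1 in stearate versus oleate. The share of all genes whose groups of 6 did not overlap was 7.79% for stearate versus control, 4.06% for oleate versus control and 10.2% for stearate versus oleate. The median difference of all genes was 0.06 with stearate and 0.087 with oleate, so that a gene at 0 lay slightly below the typical gene. After rescaling the samples by median-of-ratios size factors these medians were 0.0053 and -0.0036. The share of all genes passing was then 7.76% higher and 10.3% lower with stearate, and 8.89% higher and 9.42% lower with oleate. Without CAY10566 replicate 3 it was 20.3% and 6.51% with stearate, and 30.0% and 4.10% with oleate.

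INSIG1, on human chromosome 7 (GRCh38, chr7:155297776-155310235), encodes a protein that retains SCAP in the endoplasmic reticulum and was among the more abundant of the 8 transcripts. Its levels were 64.55, 64.41 and 57.11 TPM with DMSO and 66.54, 61.98 and 71.62 TPM with CAY10566. With stearate they were 58.84, 56.99 and 50.41 TPM, and with stearate and CAY10566 they were 60.48, 60.0 and 65.70 TPM. With oleate they were 44.58, 39.50 and 39.26 TPM, and with oleate and CAY10566 they were 43.63, 45.33 and 42.93 TPM. All 6 oleate samples lay below every control sample and below every stearate sample, whereas the stearate and control samples overlapped.

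The oleate mean of INSIG1 was 42.5 ± 2.58 TPM (SD, n = 6), against 64.4 ± 4.81 TPM in the control group and 58.7 ± 5.01 TPM with stearate. The difference from control was -0.59 (SE 0.0587, limma adjusted p = 1.62e-05), or 0.667-fold on the TPM + 1 scale. INSIG1 ranked 5 by p among the 13789 genes in that comparison. Stearate exceeded oleate by 0.45 (SE 0.0587, limma adjusted p = 1.89e-05). The exact two-sided permutation test of mean TPM gave p = 0.00216 in both cases, the smallest value that 6 samples against 6 allow. That value follows from the lack of overlap in the same samples and adds no separate support. Against control, stearate gave a difference of -0.13 (95% interval -0.254 to -0.0081) that did not pass (limma adjusted p = 0.122). After rescaling by size factors it was -0.19 and passed (limma adjusted p = 0.0272).

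INSIG2 (chr2:118088452-118110997) encodes the paralogue, which also retains SCAP, and its pattern was different. Its levels were 35.60, 37.94 and 37.21 TPM with DMSO and 35.98, 36.92 and 38.95 TPM with CAY10566. With stearate they were 33.07, 31.58 and 31.04 TPM, and with stearate and CAY10566 they were 33.70, 33.21 and 30.65 TPM. With oleate they were 41.04, 41.21 and 35.01 TPM, and with oleate and CAY10566 they were 34.79, 39.51 and 37.89 TPM. All 6 stearate samples lay below every control and every oleate sample, and oleate and control samples overlapped.

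The mean of INSIG2 was 32.2 ± 1.28 TPM (SD, n = 6) with stearate, 37.1 ± 1.24 TPM in the control group and 38.2 ± 2.85 TPM with oleate. Stearate differed from control by -0.20 (SE 0.0446, limma adjusted p = 0.00454) and from oleate by -0.24 (SE 0.0446, limma adjusted p = 0.000816). The exact permutation p was 0.00216 for each. Oleate differed from control by 0.04 (limma adjusted p = 0.549), and after rescaling by size factors that value was -0.06, also without passing.

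The ratio of INSIG1 to INSIG2 within a sample does not depend on how samples are scaled. It was 1.735 ± 0.122 (SD, n = 6) in the control group, with a range of 1.535 to 1.849. With stearate it was 1.825 ± 0.171, from 1.624 to 2.144, and overlapped the control range. With oleate it was 1.117 ± 0.096, from 0.959 to 1.254, below every control and every stearate sample. INSIG1 thus exceeded INSIG2 in all control and stearate samples and was close to it in the oleate samples.

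**Figure D2:**
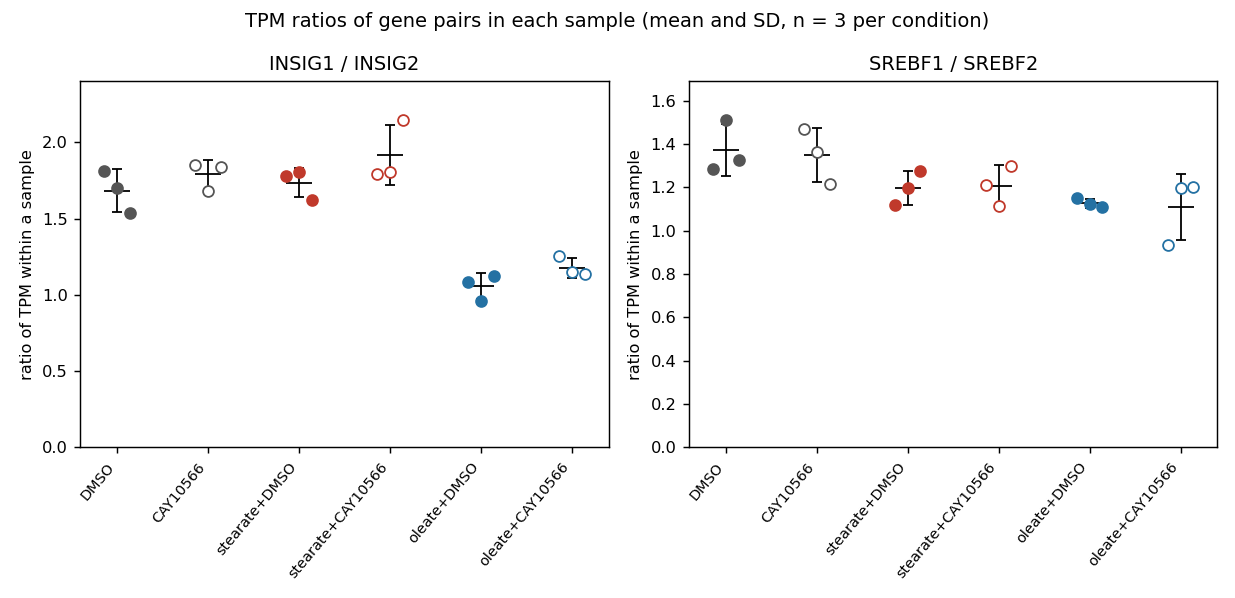
Ratios of TPM of INSIG1 to INSIG2 and of SREBF1 to SREBF2 (vertical axes, from 0) in each sample, with the mean and SD of 3 replicates per condition, filled points for DMSO and open points for CAY10566. The INSIG1 to INSIG2 ratio did not exceed 1.254 in the oleate samples and was at least 1.535 in all others.

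SREBF1 (chr17:17810399-17837002) encodes SREBP1, the regulator of fatty acid synthesis genes. Its levels were 52.25, 55.08 and 50.45 TPM with DMSO and 58.19, 50.38 and 57.90 TPM with CAY10566. With stearate they were 46.99, 44.54 and 42.03 TPM, and with stearate and CAY10566 they were 44.37, 45.88 and 54.02 TPM. With oleate they were 40.45, 41.56 and 44.33 TPM, and with oleate and CAY10566 they were 36.34, 48.15 and 42.31 TPM. Every oleate sample lay below every control sample, and 5 of 6 stearate samples did, the exception being stearate with CAY10566 replicate 3.

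The mean of SREBF1 was 54.0 ± 3.54 TPM (SD, n = 6) in the control group, 46.3 ± 4.13 TPM with stearate and 42.2 ± 3.94 TPM with oleate. The difference from control was -0.35 with oleate (SE 0.0637, limma adjusted p = 0.00242, exact permutation p = 0.00216). With stearate it was -0.22 (SE 0.0637, limma adjusted p = 0.0208, exact permutation p = 0.0108). The stearate call was lost when the 30753 genes above 0 in any sample were tested (limma adjusted p = 0.0509). Stearate and oleate differed by 0.13 without passing (limma adjusted p = 0.152), and by 0.17 after rescaling by size factors (limma adjusted p = 0.0379).

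SREBF2 (chr22:41833105-41907306) encodes SREBP2, the regulator of sterol synthesis and lipoprotein uptake genes. It ranged from 36.51 to 47.65 TPM in the control group, with a median of 38.8 TPM, from 32.93 to 41.95 TPM with stearate and from 35.18 to 40.22 TPM with oleate. The groups overlapped throughout, with differences from control of -0.05 for stearate (limma adjusted p = 0.653) and -0.07 for oleate (limma adjusted p = 0.444). Without CAY10566 replicate 3, the highest sample, they were 0.00 and -0.02 (limma adjusted p = 0.971 and 0.805), and without stearate+DMSO replicate 3 the stearate difference was also 0.00. The oleate difference passed after rescaling by size factors, at -0.17 (limma adjusted p = 0.031). The ratio of SREBF1 to SREBF2 was 1.361 ± 0.111 (SD, n = 6) in the control group, 1.203 ± 0.077 with stearate and 1.118 ± 0.098 with oleate. The oleate ratios, 0.935 to 1.20, lay below all control ratios, which ran from 1.215 to 1.509. The ratio of STARD4 to NPC1, also taken, overlapped between all groups. It ran from 0.722 to 0.973 in the control group, 0.75 to 1.106 with stearate and 0.774 to 1.012 with oleate. How often ratios of other gene pairs separate the groups was not counted.

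SCAP (chr3:47413681-47477126), the sterol-sensing escort, was lower in level than either SREBP gene and overlapped between all groups. It ranged from 16.91 to 19.61 TPM in the control group, from 16.27 to 19.95 TPM with stearate and from 16.62 to 20.18 TPM with oleate. Its differences from control were -0.03 with stearate (limma adjusted p = 0.748) and 0.02 with oleate (limma adjusted p = 0.799). After rescaling by size factors they were -0.09 and -0.07, and without CAY10566 replicate 3 they were -0.01 and 0.05, none passing. Its condition means spanned 0.0932 on the log2 scale, the smallest span of the 8 genes.

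**Figure D3:**
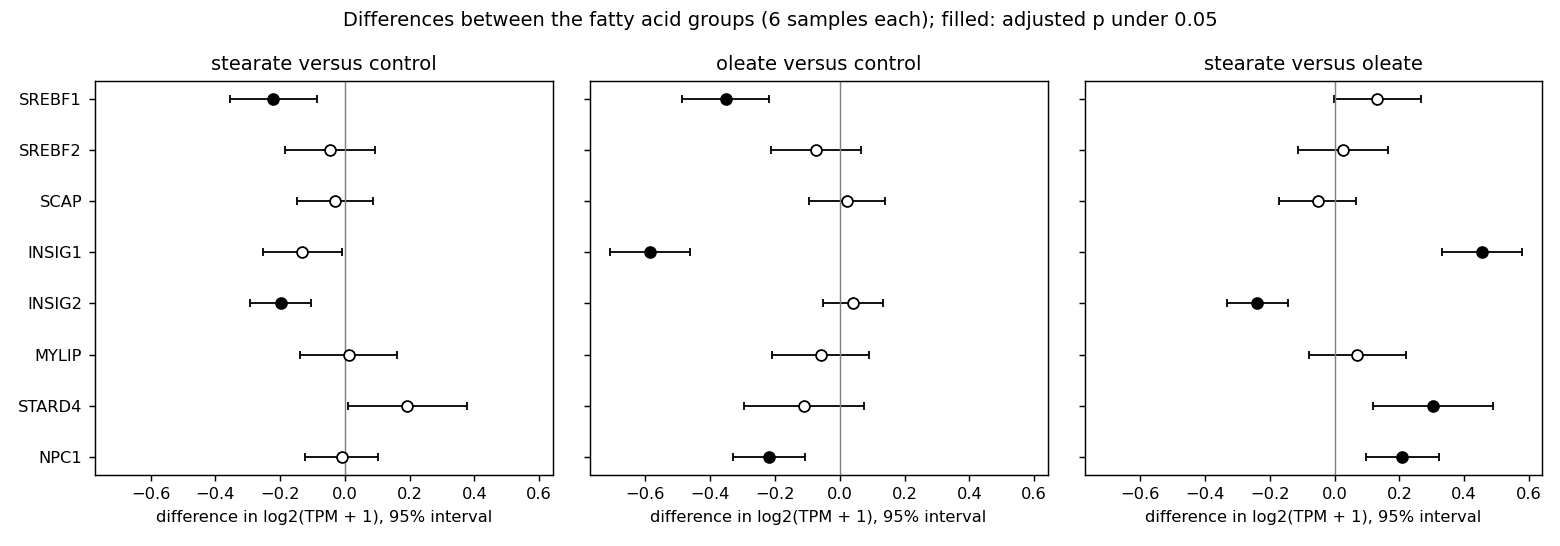
Differences in log2(TPM + 1) (horizontal axis) of the 8 genes for stearate versus control, oleate versus control and stearate versus oleate, 6 samples per group, with 95% intervals from limma. Filled points mark an adjusted p under 0.05, and INSIG1 with oleate, at -0.59, is the farthest from 0.

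NPC1 (chr18:23506184-23586506) encodes the membrane protein that exports cholesterol from late endosomes and lysosomes after lipoprotein uptake. Its levels were 42.05, 43.00 and 41.87 TPM with DMSO and 44.51, 42.12 and 48.71 TPM with CAY10566. With stearate they were 44.69, 42.80 and 45.33 TPM, and with stearate and CAY10566 they were 41.46, 40.73 and 45.35 TPM. With oleate they were 40.47, 36.33 and 32.08 TPM, and with oleate and CAY10566 they were 41.24, 37.39 and 37.49 TPM. Every oleate sample lay below every control sample, and 5 of 6 stearate samples lay above every oleate sample.

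The mean of NPC1 was 37.5 ± 3.27 TPM (SD, n = 6) with oleate, 43.7 ± 2.64 TPM in the control group and 43.4 ± 2.02 TPM with stearate. Oleate differed from control by -0.22 (SE 0.0536, limma adjusted p = 0.00784, exact permutation p = 0.00216). Stearate differed from oleate by 0.21 (SE 0.0536, limma adjusted p = 0.00944, exact permutation p = 0.00433) and from control by -0.01 (limma adjusted p = 0.926).

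STARD4 (chr5:111496033-111512590) encodes a soluble sterol carrier that moves cholesterol between membranes. Its levels were 39.18, 31.03 and 34.16 TPM with DMSO and 35.69, 34.47 and 47.38 TPM with CAY10566. With stearate they were 43.04, 41.78 and 33.99 TPM, and with stearate and CAY10566 they were 45.87, 42.15 and 46.70 TPM. With oleate they were 36.75, 34.81 and 32.46 TPM, and with oleate and CAY10566 they were 35.59, 35.18 and 29.00 TPM. The highest value of all, 47.38 TPM, was a control sample, CAY10566 replicate 3, and 5 of 6 stearate samples lay above every oleate sample.

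The mean of STARD4 was 42.3 ± 4.52 TPM (SD, n = 6) with stearate, 34.0 ± 2.81 TPM with oleate and 37.0 ± 5.73 TPM in the control group. Stearate exceeded oleate by 0.30 (SE 0.0884, limma adjusted p = 0.0196, exact permutation p = 0.0108), a call that was lost without a minimum TPM (limma adjusted p = 0.0523). Stearate exceeded control by 0.19 (95% interval 0.0081 to 0.378) without passing (limma adjusted p = 0.13). That difference was 0.27 without CAY10566 replicate 3 (limma adjusted p = 0.0158) and 0.25 without stearate+DMSO replicate 3 (limma adjusted p = 0.0422). Oleate differed from control by -0.11 (limma adjusted p = 0.38), and by -0.04 without CAY10566 replicate 3 and -0.21 after rescaling by size factors, where it did not pass either.

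MYLIP (chr6:16129086-16148248) encodes a ubiquitin ligase that marks lipoprotein receptors for degradation and is a target of the liver X receptors. It was the least abundant of the 8 genes, from 4.30 to 5.76 TPM in the control group, 4.45 to 5.63 TPM with stearate and 4.32 to 5.16 TPM with oleate. The groups overlapped, with differences from control of 0.01 for stearate (limma adjusted p = 0.933) and -0.06 for oleate (limma adjusted p = 0.588). After rescaling by size factors they were -0.04 and -0.14, and without CAY10566 replicate 3 they were 0.05 and -0.02, none passing.

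Across the 6 conditions, few neighbours in the order of mean levels were separated. For INSIG1, stearate+DMSO lay above oleate+CAY10566 without overlap. For INSIG2 the break fell between DMSO and stearate+CAY10566, and for NPC1 between DMSO and oleate+CAY10566. Every other neighbouring pair of conditions overlapped, for these and for the other 5 genes. The share of all genes with such breaks was not counted, so the breaks are a description only. The span of the condition means was 0.685 for INSIG1, 0.427 for STARD4, 0.391 for SREBF1, 0.310 for NPC1, 0.282 for INSIG2, 0.144 for SREBF2 and 0.137 for MYLIP, on the log2(TPM + 1) scale.

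To ask whether inhibition of desaturation changed these genes, the 9 CAY10566 samples were compared with the 9 DMSO samples, in a fit that adjusted for fatty acid. None of the 8 genes passed in limma, and 0% of all genes did, with 748 of 13789 genes at an unadjusted p under 0.05. INSIG1 showed the nearest approach to passing, with a difference of 0.12 (SE 0.0401, 95% interval 0.0365 to 0.205, limma adjusted p = 0.85). The difference was 0.10 without fatty acid, 0.16 with stearate and 0.10 with oleate, and none of these passed (limma adjusted p = 0.606, 0.881 and 0.979). With 1 sample left out at a time these differences ranged from 0.05 to 0.15, from 0.10 to 0.21 and from 0.07 to 0.15. The lowest values came without DMSO replicate 3, stearate+DMSO replicate 3 and oleate+DMSO replicate 3, and none passed. None of the other 7 genes passed within a fatty acid group. Among all genes 0%, 0.0145% and 0% passed in the groups without fatty acid, with stearate and with oleate, and 1399, 761 and 651 genes had an unadjusted p under 0.05.

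The fatty acid differences were then taken separately in the samples without and with CAY10566, 3 against 3. INSIG1 was lower with oleate in both, with a difference of -0.58 without the inhibitor (SE 0.0722, limma adjusted p = 0.000744) and of -0.59 with it (SE 0.0722, limma adjusted p = 0.00222). Without the inhibitor 21.1% of all genes passed as higher and 3.10% as lower with oleate, and SREBF1 (-0.31, limma adjusted p = 0.0226) and NPC1 (-0.22, limma adjusted p = 0.0403) passed beside INSIG1. The median of all genes in that comparison was 0.109, and -0.0067 after rescaling by size factors, when 10.0% of all genes passed as higher and 9.90% as lower. Leaving out DMSO replicate 2 or oleate+DMSO replicate 2 reduced these 3 calls to 1. In those fits 1.39% and 1.66% of all genes passed as lower, against 3.10% with all samples, and fewer genes also passed as higher.

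With the inhibitor 0.0580% of all genes passed as higher with oleate and 0.0508% as lower. INSIG1 ranked 2 by p among all genes there. It was among 7 genes that passed as lower, the others being FDPS, DHCR7, IDI1 and MVK, which encode enzymes of sterol synthesis, SCD, the desaturase gene, and SLC25A1, the mitochondrial citrate carrier gene. These 6 names were taken from the calls after their values were seen. Their differences ran from -0.66 for SCD to -0.30 for FDPS. The small number of calls in this comparison rested on CAY10566 replicate 3. Without it 4.49% of all genes passed as higher and 0.537% as lower, 74 genes in all as lower, and INSIG1 ranked 10 by p with a difference of -0.54 (limma adjusted p = 0.00644). In the same samples SREBF1 differed by -0.39 (limma adjusted p = 0.113) and NPC1 by -0.21 (limma adjusted p = 0.266), neither passing. Without CAY10566 replicate 3 these were -0.36 (limma adjusted p = 0.0593) and -0.16 (limma adjusted p = 0.224). SREBF1 passed after rescaling by size factors, at -0.46 (limma adjusted p = 0.02), and 32 genes passed as lower (0.232% of all genes).

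INSIG2 with stearate differed from control by -0.20 without the inhibitor (SE 0.0662, limma adjusted p = 0.0499) and by -0.19 with it (limma adjusted p = 0.115). It was the only one of the 8 genes to pass in the former comparison, in which 10.5% of all genes passed as higher and 3.53% as lower. That call was lost in 14 of 18 fits that left out 1 sample, including each fit without a DMSO or stearate+DMSO replicate. None of the 8 passed in the latter comparison, against 2.18% and 2.57% of all genes. The differences of SREBF1 with stearate were -0.24 (limma adjusted p = 0.0971) and -0.20 (limma adjusted p = 0.238). Rescaled by size factors, 3 of the 8 passed without the inhibitor, where 5.17% of all genes passed as higher and 6.91% as lower. They were INSIG2 (-0.29, limma adjusted p = 0.0143), SREBF1 (-0.33, limma adjusted p = 0.016) and INSIG1 (-0.25, limma adjusted p = 0.0174).

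The test of whether a fatty acid difference itself changed with CAY10566 was passed by none of the 8 genes in limma. Among all genes 0.00725% passed for stearate and 0% for oleate, with 1290 and 1415 genes at an unadjusted p under 0.05. For INSIG1 the change in the oleate difference was -0.01 (95% interval -0.224 to 0.21) and in the stearate difference 0.06 (95% interval -0.158 to 0.276). With 1 sample left out these changes ranged from -0.06 (without CAY10566 replicate 2) to 0.05 (without oleate+DMSO replicate 1) and from -0.01 (without stearate+DMSO replicate 3) to 0.12 (without DMSO replicate 3), so the sign of neither was fixed. For STARD4 the oleate difference was 0.00 without and -0.22 with the inhibitor, a change of -0.22 (95% interval -0.584 to 0.141, limma adjusted p = 0.632). Without CAY10566 replicate 3 the difference with the inhibitor was -0.08 and the change -0.08 (95% interval -0.401 to 0.241).

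**Figure D4:**
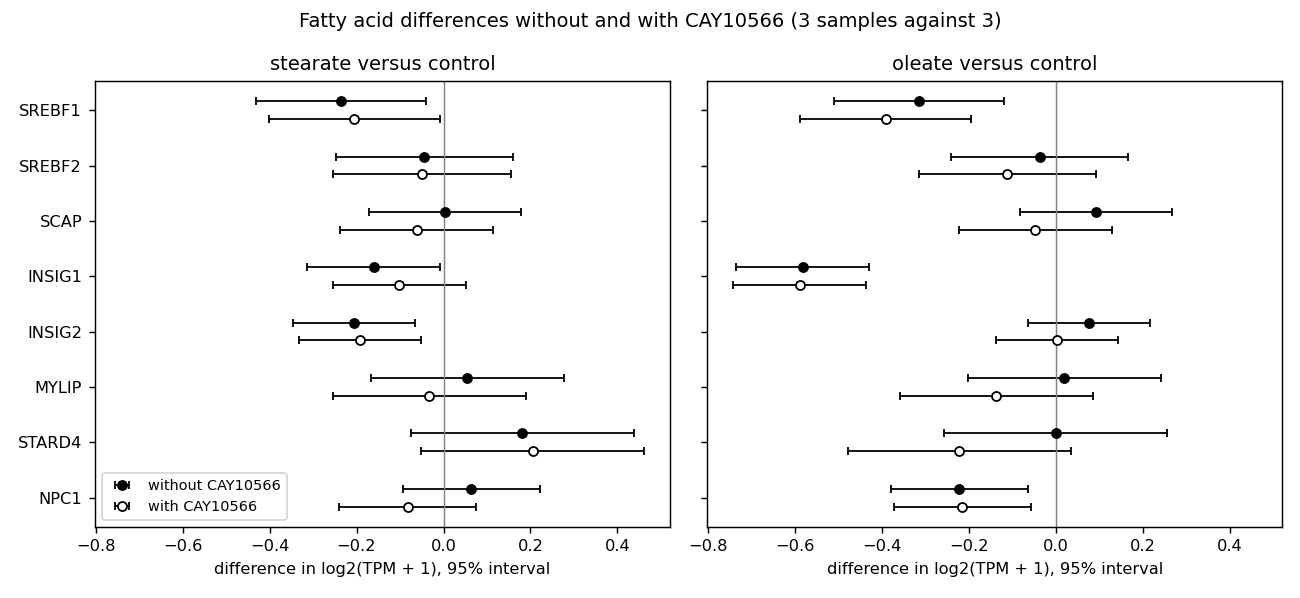
Differences in log2(TPM + 1) (horizontal axis) between each fatty acid and control for the 8 genes, in samples without (filled) and with (open) CAY10566, 3 samples against 3, with 95% intervals from limma. The INSIG1 differences with oleate were -0.58 and -0.59, and the intervals without and with CAY10566 overlapped for all 8 genes.

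Genes of the surrounding pathway were taken from 6 lists, described by their counts beside the share of all genes that passed in the same fit. The machinery that moves, cleaves and degrades SREBP, SCAP and INSIG proteins formed a list of 25 genes. With stearate 8 of 25 rose and none fell (13.5% and 5.97% of all genes). With oleate 10 of 25 rose and none fell (23.0% and 2.70% of all genes). The list medians were 0.122 and 0.159, against 0.06 and 0.087 over all genes. SEC24D, a cargo adaptor of the coat that carries vesicles to the Golgi apparatus, rose from 9.85 ± 0.738 to 14.3 ± 0.451 TPM (SD, n = 6) with stearate (0.50, SE 0.0533, limma adjusted p = 3.64e-06) and differed by 0.07 with oleate (limma adjusted p = 0.387). ERLIN2, a membrane protein of the endoplasmic reticulum that takes part in sterol-regulated protein degradation, rose from 40.4 ± 7.35 to 53.5 ± 1.86 TPM with oleate (0.41, SE 0.0791, limma adjusted p = 0.0028). Without CAY10566 replicate 3 the stearate count was 13, where 20.3% of all genes rose, and the oleate count 12, where 30.0% did. After rescaling by size factors 7 genes rose and 1 fell in each comparison. Of all genes, 7.76% rose and 10.3% fell with stearate there, and 8.89% rose and 9.42% fell with oleate.

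The enzymes of sterol synthesis, which are targets of SREBP2, fell with oleate, as INSIG1 did. None of 21 rose and 13 fell with oleate (23.0% and 2.70% of all genes), with a list median of -0.23. With stearate 1 rose and 1 fell (13.5% and 5.97% of all genes), and 12 of 21 were higher with stearate than with oleate (6.85% of all genes). DHCR7, the enzyme of the last step to cholesterol in one branch of the pathway, fell from 90.1 ± 3.64 to 65.1 ± 3.92 TPM (SD, n = 6) with oleate (-0.46, SE 0.048, limma adjusted p = 2.23e-05). MSMO1, a sterol methyl oxidase, fell from 49.1 ± 2.53 to 35.9 ± 2.58 TPM (-0.44, SE 0.0587, limma adjusted p = 0.000361). TM7SF2, a sterol reductase, rose with stearate from 39.7 ± 5.60 to 47.9 ± 3.18 TPM (0.28, SE 0.0783, limma adjusted p = 0.0188). The count that fell with oleate was 16 after rescaling by size factors, where 9.42% of all genes fell, and 11 without CAY10566 replicate 3, where 4.10% did. With stearate none rose and 3 fell after the rescaling (7.76% and 10.3% of all genes).

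Of 16 tested genes of fatty acid synthesis and desaturation, targets of SREBP1, 1 rose and 5 fell with oleate (23.0% and 2.70% of all genes), and 3 rose and 2 fell with stearate (13.5% and 5.97% of all genes). SCD fell from 184 ± 13.6 to 111 ± 10.3 TPM (SD, n = 6) with oleate (-0.72, SE 0.088, limma adjusted p = 0.00021) and differed by -0.10 with stearate (limma adjusted p = 0.446). FASN, the fatty acid synthase gene, fell from 94.3 ± 8.56 to 67.2 ± 7.84 TPM with stearate (-0.49, limma adjusted p = 0.000409) and to 61.6 ± 7.48 TPM with oleate (-0.61, limma adjusted p = 0.000361). FASN thus fell with both fatty acids, as SREBF1 did. ACSL3, which activates long-chain fatty acids, rose with stearate (0.18, limma adjusted p = 0.0317) and fell with oleate (-0.19, limma adjusted p = 0.0204). GPAM, the acyltransferase that starts glycerolipid synthesis, rose with oleate (0.25, limma adjusted p = 0.0139). After rescaling by size factors none rose with stearate or oleate, where 7.76% and 8.89% of all genes rose. In those fits 4 fell with stearate and 7 with oleate, where 10.3% and 9.42% of all genes fell.

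Of 12 tested liver X receptor genes and targets, the group to which MYLIP belongs, 1 rose and 1 fell with stearate (13.5% and 5.97% of all genes) and 2 rose and 1 fell with oleate (23.0% and 2.70% of all genes). ABCG1, a cholesterol exporter, fell with oleate from 2.93 ± 0.288 to 2.08 ± 0.190 TPM (-0.35, limma adjusted p = 0.00392), and PLTP, the phospholipid transfer protein gene, fell with stearate (-0.20, limma adjusted p = 0.00564). AGPAT3, a phospholipid acyltransferase, rose with oleate (0.31, limma adjusted p = 0.00246). SMPDL3A, a phosphodiesterase near the minimum of 1 TPM, rose with stearate from 1.11 ± 0.265 to 1.63 ± 0.396 TPM (0.31, limma adjusted p = 0.0493). After rescaling by size factors none rose and 1 fell with stearate (7.76% and 10.3% of all genes), and 1 rose and 3 fell with oleate (8.89% and 9.42% of all genes). Without CAY10566 replicate 3, 2 rose and 1 fell with stearate (20.3% and 6.51% of all genes), and 3 rose and 1 fell with oleate (30.0% and 4.10%).

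Of 14 tested lipoprotein receptors and adaptors, 1 rose and 1 fell with stearate (13.5% and 5.97% of all genes). With oleate 4 rose and none fell, near the 23.0% and 2.70% of all genes. After rescaling by size factors 1 rose and 1 fell with oleate (8.89% and 9.42% of all genes), and without CAY10566 replicate 3 the number that rose with stearate was 4 (20.3% of all genes). SORL1, a sorting receptor of the same family, rose from 6.89 ± 1.01 to 10.5 ± 1.33 TPM (SD, n = 6) with oleate (0.54, limma adjusted p = 0.00231), and LRP6 rose as well (0.50, limma adjusted p = 0.0241). SCARB1, the receptor for high-density lipoprotein, fell with stearate from 44.3 ± 2.16 to 38.0 ± 1.65 TPM (-0.21, limma adjusted p = 0.00219) and differed by 0.00 with oleate (limma adjusted p = 0.987).

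Of 30 tested genes of lysosomal and intracellular cholesterol transport, the group of NPC1 and STARD4, 5 rose and 2 fell with stearate, near the 13.5% and 5.97% of all genes. With oleate 10 rose and none fell, where 23.0% and 2.70% of all genes did. The list median with oleate, 0.043, lay below that of all genes, 0.087. The oleate counts were 5 and 5 after rescaling by size factors (8.89% and 9.42% of all genes), and 9 rose with stearate without CAY10566 replicate 3 (20.3% of all genes). CAV1, which encodes the coat protein of caveolae, fell with stearate from 112 ± 12.8 to 88.8 ± 6.79 TPM (SD, n = 6) and rose with oleate to 137 ± 6.36 TPM (-0.32, limma adjusted p = 0.00178, and 0.29, limma adjusted p = 0.00427). OSBPL8, a lipid exchange protein at membrane contacts (0.50, limma adjusted p = 0.00978), and MITF, a regulator of lysosomal genes at 1.33 TPM or less on average (0.38, limma adjusted p = 0.0397), rose with oleate. TMEM97, which binds NPC1 and limits its level, fell with stearate (-0.13, limma adjusted p = 0.0224). None of the genes in the 6 lists passed in CAY10566 versus DMSO.

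**Figure D5:**
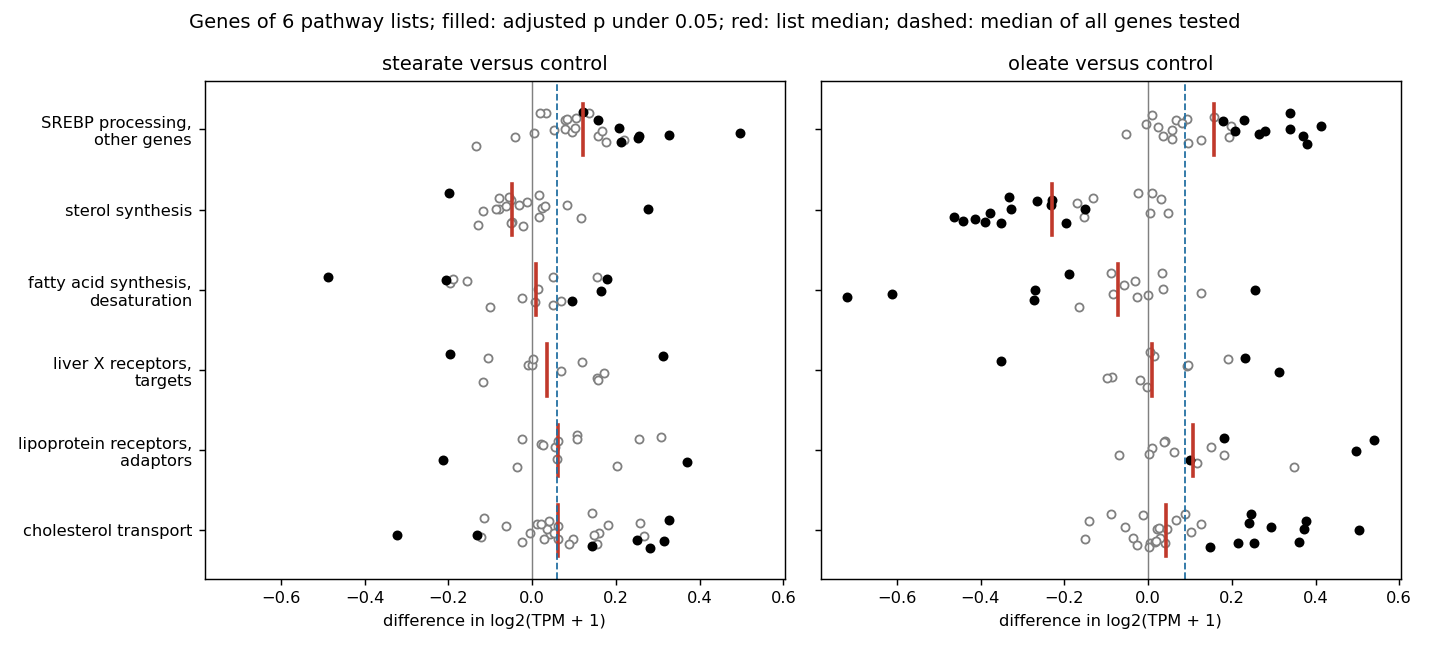
Differences in log2(TPM + 1) (horizontal axis) of the genes of 6 pathway lists for stearate versus control and oleate versus control, 6 samples per group, with a point per gene, filled for an adjusted p under 0.05. The red bar is the list median and the dashed line the median of all genes tested, and the sterol synthesis median lies at -0.23 with oleate and -0.048 with stearate.

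Genes with the most similar pattern were sought for the 4 genes with the largest span, among 10142 genes with a mean of at least 5 TPM. Likeness was the root mean square difference of the 6 condition means on the log2 scale, after centring each gene. For INSIG1 the closest were DHCR7 (0.0577), MSMO1 (0.075) and LIPG, an endothelial lipase gene (0.0843). DHCR7 and MSMO1 were also named above for their fall with oleate in the same samples, so this is not a separate result. For STARD4 they were TMEM191A (0.028), ODF2L (0.0364) and RHEBL1 (0.0373). For SREBF1 they were IER5L (0.0554), LBX2 (0.0597) and the metallothionein gene MT1X (0.0598). For NPC1 they were TBC1D17 (0.0235), OCEL1 (0.0324) and HEBP1 (0.0324). These likenesses are a description of 6 means per gene.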

How the data were processed

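RNA was measured in 18 OVCAR5 samples, 3 in each of 6 conditions, grouped by the sample labels. The authors sequenced 100 bp paired-end reads from poly(A)-selected, strand-specific libraries, used Trim Galore for trimming, aligned the reads by STAR 2.7.1a to GRCh38 (Ensembl release 99) and quantified genes with RSEM. The values the authors deposited are TPM per gene, unchanged here. Each sample sums to between 999999.1 and 1000000.5 TPM, so depth is unknown and precision is given by the spread between replicates. RSEM shares reads among similar genes, and a fall of some TPM values raises the rest. A single line that names no gene was left out, and 93.1% of identifiers had a symbol.

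Tests used limma 3.58.1 (R 4.3.3; lmFit, eBayes with a trend) on log2(TPM + 1), which understates changes of low genes, above a minimum of 1 TPM on average, with Benjamini-Hochberg adjustment over all of them. Fatty acid groups of 6 were compared in 1 model, CAY10566 with the fatty acid as a covariate, and separate and interaction contrasts in a model of 6 conditions. Exact two-sided permutation tests were run only for genes that had passed. The fit was tested on simulated data. Alternatives were a pseudocount of 0.1, no minimum TPM, a minimum of 5, no trend, size factors, a replicate block, CAY10566 as a covariate and each sample left out. The list counts with size factors and without CAY10566 replicate 3, and the shares of all genes passing under each alternative, were added after seeing the data. Replicate numbers did not pair the samples.

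The 8 genes and the lists were chosen with earlier results of these data known. Named besides the 8 were the 3 genes most alike for each of the 4 genes of largest span and, of each list, the 2 largest rises and the 2 largest falls among genes that passed against control. Gene coordinates come from GENCODE release 44 (GRCh38). Figures were drawn with matplotlib 3.10.9.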

Additional observations from a re-analysis of the deposited data

How the results depend on the processing

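In the 3 fatty acid comparisons each call among the 8 genes kept its direction and its threshold in all 18 fits that left out 1 sample. The oleate difference of INSIG1 ranged from -0.62 to -0.55 there, and the highest limma adjusted p of SREBF1 with stearate was 0.0487. No value of these 8 genes that had passed was reversed under any alternative. The number passing in stearate versus control was 2 and became 1 with no minimum TPM, 3 with size factors (INSIG1 added) and 2 to 3 with 1 sample left out (STARD4 added without CAY10566 replicate 3 or stearate+DMSO replicate 3). Of all genes, 5.97% passed as lower in the main fit, 2.16% with no minimum TPM and 10.3% with size factors. As higher passed 13.5% in the main fit, 20.3% without CAY10566 replicate 3 and 12.5% without stearate+DMSO replicate 3. In oleate versus control 3 became 4 with size factors (SREBF2 added), and in stearate versus oleate 4 became 5 with size factors (SREBF1 added) and 3 with no minimum TPM (STARD4 lost). All genes passing as lower in oleate versus control went from 2.70% to 9.42% with size factors. Those passing as higher in stearate versus oleate went from 6.85% to 10.5% with size factors and to 2.32% with no minimum TPM. Without CAY10566, the 1 gene passing with stearate became 0 with no minimum TPM, with no trend in limma and with the replicate block, 3 with size factors, and 0 to 1 with 1 sample left out. The share of all genes passing as lower was 3.53% in the main fit and 6.91% with size factors. It was 1.13% with no minimum TPM, 2.96% with no trend and 3.23% with the replicate block. The 3 genes passing with oleate became 1 with no minimum TPM and 1 to 3 with 1 sample left out. All genes passing as lower with oleate were 3.10% in the main fit and 0.953% with no minimum TPM. They were 1.39% without DMSO replicate 2 and 1.66% without oleate+DMSO replicate 2. With CAY10566, the 1 gene passing with oleate became 2 with size factors, while all genes passing as lower went from 0.0508% to 0.232%. The causes were not tested, except that no minimum TPM raises the number of genes adjusted for. The replicate block changed no other count. Samples of the same replicate number correlated at -0.18 to 0.103 in their deviations (median 0.012 over 45 pairs), so the numbers were not taken as pairs. TPM keeps no depth, so how far depth limits the smaller differences is unknown.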
